A study of Mus musculus with 2 samples.

Results

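The longest stretches of DNA called as enriched for 5-hydroxymethylcytosine (5hmC) in early-passage mouse embryonic fibroblasts (MEFs) are described here. They are the peaks of the passage 0 list on chromosomes 1 to 19 that span at least 2000 bp from start to end. There were 1265 such broad peaks among 60157 passage 0 peaks in all, or 2.11% of the 60086 on the autosomes (95% exact binomial interval 1.99% to 2.22%). They covered 3.17 Mb of the 56.7 Mb under autosomal passage 0 peaks, which is 5.6% of that length.

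5hmC is made when the TET dioxygenases (TET1, TET2 and TET3) oxidise 5-methylcytosine, the methylated base found in mammals mainly at CpG sites. The modified base is an intermediate on a route of DNA demethylation and is also a lasting mark, found mostly over gene bodies and distal regulatory elements. Its overall level is known to fall when primary cells are put into culture.

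Both groups were MEFs from C57BL/6 embryos at day 13.5 after mating, grown in serum-containing medium and harvested without passage (passage 0) or at passage 5. DNA fragments carrying 5hmC were captured after glucosylation and biotin tagging (GLIB) with a commercial kit and then sequenced. The series, titled for the regulation of Tet1 in development, states as its question how 5hmC compares between these passages. How many embryos were used, and whether they were pooled, is not given in the sources used here, and peak lists hold no marker by which the cell type could be checked.

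Each passage had 1 library, so no value has a replicate error and no difference between passages was tested. Intervals are exact 95% intervals, which cover only counting error and take peaks to be independent of each other. Read depth is unknown. The passage 5 list held 6726 peaks, 6700 of them on the autosomes, and lower depth, weaker enrichment and a lower level of 5hmC at passage 5 cannot be told apart.

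The peaks were chosen by their passage 0 width, and the score of a passage 0 peak comes from the same reads, so both are described without a test. The broad peaks had a median width of 2303 bp, with quartiles of 2129 and 2641 bp and a maximum of 21069 bp. Most lay close to the limit: 847 spanned 2000 to 2499 bp, 268 spanned 2500 to 2999 bp, 116 spanned 3000 to 3999 bp and 34 were longer. The narrowest lay on chromosome 5 at chr5:36621127-36623126 with a width of 2000 bp and a score of 363, followed by a peak of 2001 bp on chromosome 2 (chr2:173126248-173128248, score 319). The widest peak that missed the limit spanned 1999 bp on chromosome 4 (chr4:45466581-45468579, score 290), and the next spanned 1998 bp on chromosome 6 (chr6:135314771-135316768, score 338). Nothing in these values sets the limit apart from its surroundings, and there were 3214 peaks of 1500 to 1999 bp just under it.

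Broad peaks were also among the highest-scoring. Their median score was 524 (quartiles 413 and 675, range 213 to 3202), against 127 for the 58821 narrower autosomal peaks. Of the 76 autosomal passage 0 peaks with a score of 1000 or more, 69 were broad. At the other end, 44 broad peaks scored below 300.

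Broad peaks occurred on every autosome, in numbers from 40 on chromosome 19 to 102 on chromosome 8. As a share of the passage 0 peaks on the chromosome, they ranged from 1.34% on chromosome 13 (0.963% to 1.81%) to 2.93% on chromosome 16 (2.26% to 3.72%). Chromosome 8 followed at 2.80% (2.29% to 3.38%) and chromosome 17 at 2.73% (2.14% to 3.42%). The intervals of these 3 chromosomes lay above the autosomal share of 2.11%, that of chromosome 13 lay below it, and the interval of chromosome 6, 1.66% (1.25% to 2.15%), reached it.

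They were placed toward the distal ends. When each chromosome was cut into 5 equal lengths between its first and its last passage 0 peak, the distal length held 38.1% of the broad peaks and 30.9% of all passage 0 peaks. Broad peaks made up 2.60% of the peaks there (2.37% to 2.84%), against 1.73% in the proximal length (1.46% to 2.03%) and 1.81% to 2.0% in the 3 between. Mouse autosomes have their centromere at the proximal end.

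**Figure D1:**
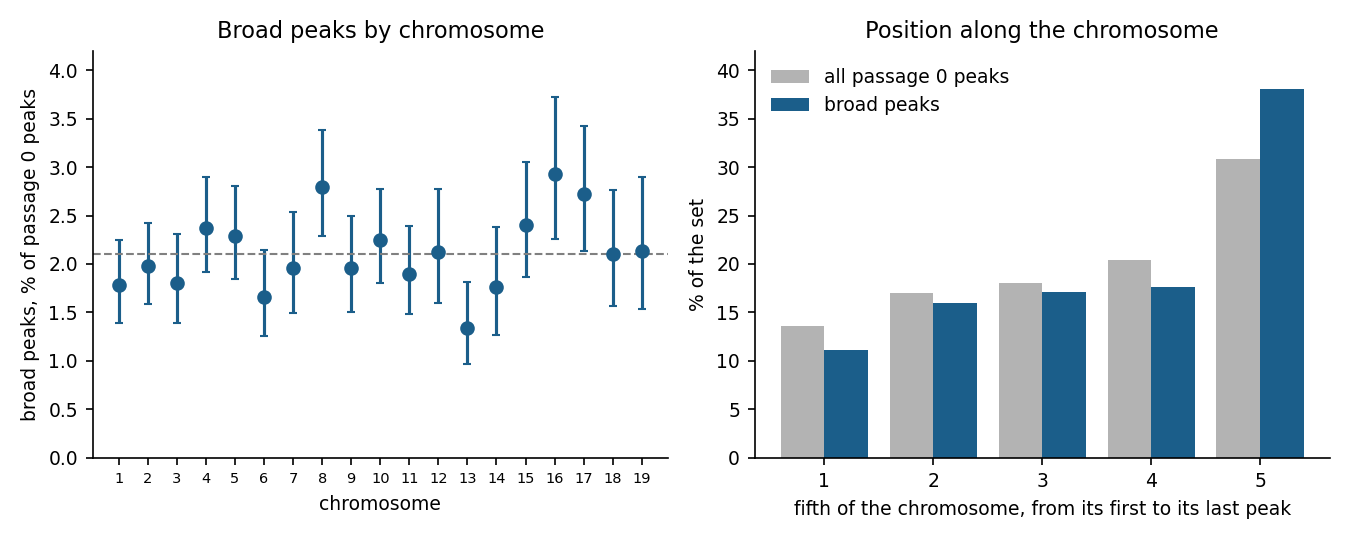
Left, broad peaks as a percentage of the passage 0 peaks on each autosome, with 95% exact binomial intervals and the autosomal share of 2.11% as a dashed line. Right, percentage of all autosomal passage 0 peaks (grey) and of broad peaks (blue) in each of 5 equal lengths of the chromosomes from the proximal to the distal end; the distal length held 38.1% of the broad peaks.

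Broad peaks gathered where passage 0 peaks were dense. Of 2102 windows of 1 Mb with a passage 0 peak, 626 held a broad one and 330 held exactly 1. Another 50 windows held 5 or more, and these contained 318 of the 1265. In windows with 1 to 9 passage 0 peaks, 0.332% of the peaks were broad (0.143% to 0.652%). This share was 0.967% in windows with 10 to 29 peaks, 1.84% in those with 30 to 59 and 3.30% in those with 60 or more (3.06% to 3.56%). Crowded windows therefore held more broad peaks even in relation to their larger number of peaks.

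The window with the most broad peaks lay at 149 to 150 Mb of chromosome 4. It had 10 among its 123 passage 0 peaks, and 3 of the 10 had a passage 5 peak. Windows at 114 to 115 Mb of chromosome 5 and at 75 to 76 Mb of chromosome 7 held 9 each, of which 2 each had a passage 5 peak. Another 10 windows held 8. They differed in what was found at passage 5: none of the 8 broad peaks at 49 to 50 Mb of chromosome 8 and 1 of the 8 at 122 to 123 Mb of chromosome 8 had a passage 5 peak. In a window named after its values were seen, at 3 to 4 Mb of chromosome 11, all 8 had one.

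Most broad peaks had a close neighbour. Another passage 0 peak lay within 5 kb of 1033 of them, or 81.7% (79.4% to 83.8%), where the same held for 57.5% of all autosomal passage 0 peaks. This share rose with width below the limit too. It was 50.8% at 500 to 749 bp, 64.3% at 1000 to 1499 bp and 73.6% (72.0% to 75.1%) at 1500 to 1999 bp. The median distance to the nearest neighbour was 1290 bases for broad peaks, 1935 bases at 1500 to 1999 bp and 3726 bases for all narrower ones. Neighbours lay within 5 kb on both sides of 529 broad peaks, 41.8%, against 30.7% at 1500 to 1999 bp and 18.5% of all narrower peaks. Within 50 kb to either side of its midpoint, the median broad peak had 11 other passage 0 peaks (quartiles 7 and 17). The median peak of 1500 to 1999 bp had 9 (5 and 14) and the median narrower peak had 6 (3 and 11).

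Those neighbours were mostly of ordinary width. The 1516 distinct peaks directly beside a broad peak and within 5 kb of it had a median width of 954 bp and a median score of 163. Of these, 101 were broad themselves and formed 58 adjacent pairs. In 117 cases the nearest neighbour was 100 bases away or less, which is 9.25% of the broad peaks. The same held for 6.04% of peaks of 1500 to 1999 bp and 4.0% of all narrower ones.

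Joining peaks no more than 1 kb apart placed the broad peaks in 1216 blocks, of which 717 consisted of the broad peak alone and 499 of several peaks. Counted by peak, a neighbour lay within 1 kb of 43.3% of broad peaks, 34.7% at 1500 to 1999 bp and 24.1% of all autosomal peaks. Of the 1216 blocks, 15 were 10 kb or more long, and they held 37 broad peaks. Blocks without a broad peak were not counted, and a broad peak itself lengthens its block. The longest, at chr11:3030490-3100128, spanned 69639 bases with 8 broad peaks. The next was at chr10:119859088-119881361, where 4 of 7 peaks were broad along 22274 bases and 1 passage 5 peak was called. A block of 19467 bases on chromosome 5 (chr5:111849756-111869222) held 10 peaks, 2 of them broad, and 1 passage 5 peak. The fourth, of 13881 bases on chromosome 4 (chr4:149312166-149326046), held 6 peaks, 2 of them broad, and 1 passage 5 peak. The fifth, of 13782 bases on chromosome 18, held 6 peaks, 2 of them broad, and no passage 5 peak.

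At least 1 base of 292 of the 1265 broad peaks lay in a passage 5 peak, which is 23.1% (20.8% to 25.5%). Over all autosomal passage 0 peaks this share was 7.62%, and it was 15.6% (14.3% to 16.9%) for peaks of 1500 to 1999 bp. The other 973 broad peaks, 76.9%, had no counterpart. The share was 3.90% among the 692 peaks under 500 bp (2.59% to 5.63%) and 3.38% at 500 to 749 bp (3.12% to 3.65%). From there it rose with width, through 6.94% at 750 to 999 bp and 11.7% at 1000 to 1499 bp to 21.3% (18.5% to 24.2%) at 2000 to 2499 bp. It was 24.6% (19.6% to 30.2%) at 2500 to 2999 bp and 24.1% (16.7% to 33.0%) at 3000 to 3999 bp, values that lay within each other's intervals. Among the 34 peaks of 4000 bp or more it was 52.9% (35.1% to 70.2%), or 42.9% (24.5% to 62.8%) without a stretch of chromosome 11 described further on.

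A longer peak offers more bases to overlap, so passage 5 peaks were also counted by midpoint per length. Broad peaks held 372 passage 5 midpoints, or 117 per Mb (106 to 130), and narrower peaks 79.1 per Mb (76.7 to 81.5). A stretch at the start of chromosome 11 contributed 44 of the 372. Without its 8 broad peaks the density was 106 per Mb (94.4 to 118). By width it was 97.6 per Mb at 1000 to 1499 bp, 93.8 at 1500 to 1999 bp, 109 at 2000 to 2499 bp, 113 at 2500 to 2999 bp and 82.3 at 3000 to 3999 bp. Per base, then, the values for broad peaks below 4000 bp stood close to those for peaks of 1000 to 1999 bp, and the interval at 3000 to 3999 bp, 56.3 to 116, was wide. In the class of 4000 bp or more the density was 281 per Mb with the chromosome 11 stretch and 119 (68.1 to 193) without it.

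**Figure D2:**
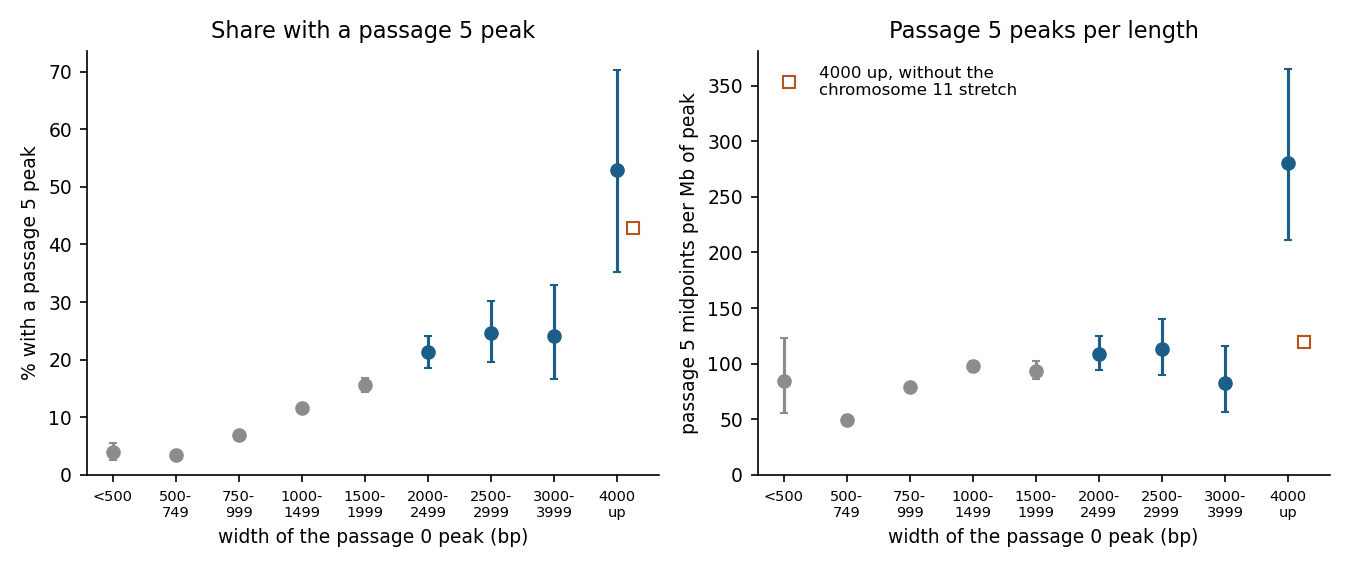
Left, percentage of autosomal passage 0 peaks overlapped (1 base or more) by a passage 5 peak, by width of the passage 0 peak in bp, with exact 95% intervals. Right, passage 5 midpoints per Mb of passage 0 peak with exact Poisson intervals. Broad classes are blue, narrower ones grey, and open squares give the class of 4000 bp or more without the chromosome 11 stretch, 42.9% and 119 per Mb.

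Together the broad peaks took in 373 of the 6700 autosomal passage 5 peaks, 5.57% (5.03% to 6.14%). The 6700 include 2012 that touched no passage 0 peak. Of the 4688 passage 5 peaks that touched any autosomal passage 0 peak, 7.96% touched a broad one. Of the length under passage 0 peaks, 5.6% was in broad ones, a share to be set beside the 7.96%.

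Among broad peaks, those with higher scores more often had a passage 5 peak. The share was 11% (7.81% to 15%) for the 317 broad peaks with the lowest scores and 13.0% (9.47% to 17.2%) for the next 316. It was 28.8% (23.9% to 34.1%) in the next 316 and 39.6% (34.1% to 45.2%) in the 316 with the highest scores. Of the 69 with a score of 1000 or more, 37 had a passage 5 peak.

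At a similar score the order turned around: for scores of 300 to 999 the share was lower in broad peaks than in each narrower class. The difference rests on counting intervals and was not otherwise tested. For scores of 400 to 599, the share was 52.9% among the 34 peaks under 1000 bp (35.1% to 70.2%), 41.6% among 517 peaks of 1000 to 1499 bp (37.3% to 46.0%), 26.7% among 723 peaks of 1500 to 1999 bp (23.5% to 30.1%) and 18.0% among 540 broad peaks (14.8% to 21.5%). For scores of 300 to 399 the same order held, with 35.3%, 23.0%, 14.4% and 11.7%, although the last pair had overlapping intervals. For scores of 600 to 999 it was 55.6% of 27 peaks of 1000 to 1499 bp (35.3% to 74.5%), 50% of 136 peaks of 1500 to 1999 bp and 33.3% of 381 broad peaks (28.6% to 38.3%). For scores of 200 to 299 the share fell from 20.1% under 1000 bp (18.4% to 22.0%) through 12.1% at 1000 to 1499 bp (11.2% to 13.1%) to 6.54% at 1500 to 1999 bp (5.17% to 8.14%). Only 44 broad peaks had such scores, 4 of them with a passage 5 peak. Their share of 9.09% stood above that of the class of 1500 to 1999 bp, with an interval of 2.53% to 21.7% that included it.

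To put this in 1 number, narrower autosomal peaks were weighted to the scores of the broad peaks in classes of 100, up to a score of 1000. The 1196 broad peaks in that range had a passage 5 peak in 21.3% of cases (19% to 23.8%), and the weighted narrower peaks in 38.0%. No interval was computed for the weighted share. At scores of 600 to 999 it rested on few narrower peaks: 4 under 1000 bp, 27 of 1000 to 1499 bp and 136 of 1500 to 1999 bp. The difference was -16.6 percentage points. It was -12.3 points against peaks of 1500 to 1999 bp alone, the most similar in width. This comparison was added after the data were seen, and width and score are measures of the same passage 0 reads. The share with a passage 5 peak thus stood above the background at 23.1% over all scores, and below that of narrower peaks once scores were alike.

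**Figure D3:**
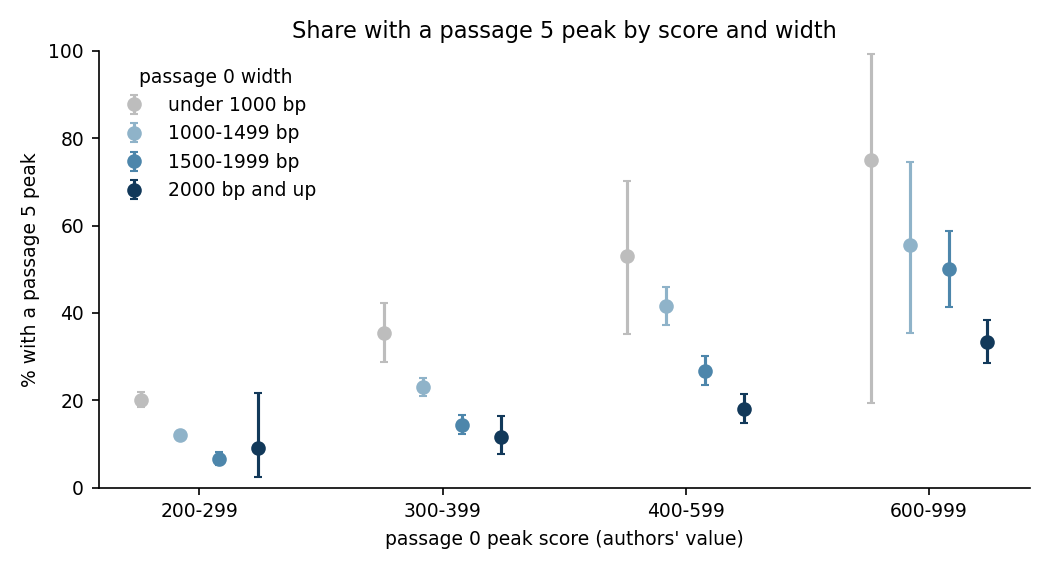
Percentage of autosomal passage 0 peaks with a passage 5 peak, in classes of the authors' passage 0 score, for 4 classes of width, with exact 95% intervals. At scores of 400 to 599 the share was 52.9% for peaks under 1000 bp and 18.0% for peaks of 2000 bp and more.

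Passage 5 peaks lay narrowly within broad ones. Of 374 overlapping pairs, 351 (93.9%) had the passage 5 peak wholly inside the broad peak. This share was 91.7% at 1500 to 1999 bp and 75.9% in all narrower peaks. In broad peaks 23 pairs crossed an edge, and 1 passage 5 peak touched a pair of adjacent broad peaks. The passage 5 peak was 23.6% as wide as the broad peak in the median (quartiles 17.9% and 28.6%), and it exceeded 50% of the width in 8 pairs. The median was 35.1% at 1500 to 1999 bp and 57.7% in all narrower peaks. This ratio has the width by which the broad peaks were chosen as its divisor. Of the 292 broad peaks with any passage 5 peak, the median had 26.4% of its length covered (20.8% and 34.8%), and 27 had more than 50% covered. At 1500 to 1999 bp more than 50% was covered in 68 of 500. Over all 1265, passage 5 peaks covered 7.60% of the length, or 6.65% without the chromosome 11 stretch. They covered 5.92% of the length of peaks of 1500 to 1999 bp and 4.71% over all autosomal passage 0 peaks.

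The width of the passage 5 peak hardly followed that of the peak around it. Outside that stretch, passage 5 peaks had a median width of 587 bp in passage 0 peaks of 1000 to 1499 bp, 588.5 bp in those of 1500 to 1999 bp, 578 bp at 2000 to 2499 bp, 597 bp at 2500 to 2999 bp, 588.5 bp at 3000 to 3999 bp and 589.5 bp at 4000 bp or more. Across the 329 pairs of broad and passage 5 peaks outside the stretch, the widths correlated with a Spearman coefficient of 0.03 and a Pearson coefficient of 0.24. Pairs are not independent samples, since several can share 1 broad peak, and the Pearson value includes a passage 5 peak of 6101 bp on chromosome 17. The median passage 5 score was also alike, 119.2 in narrower passage 0 peaks and in broad ones outside the stretch, and 119.6 in all broad ones. Only 2 autosomal passage 5 peaks reached 2000 bp, and both lay in broad passage 0 peaks.

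Several passage 5 peaks in 1 passage 0 peak were found 91 times, 52 of them in broad peaks. Of the broad peaks, 240 held a single passage 5 peak, 44 held 2 and 8 held 3 to 13. These 52 with at least 2 made up 4.11% of the broad peaks, and the same held for 0.151% of all autosomal passage 0 peaks. Among the peaks with any passage 5 peak outside the chromosome 11 stretch, at least 2 were found in 15.5% of the broad ones (11.5% to 20.2%), in 3.6% of those of 1500 to 1999 bp (2.15% to 5.63%) and in 1.13% of those of 1000 to 1499 bp (0.658% to 1.8%). Adjacent passage 5 peaks in 1 broad peak were separated by a median of 364 bases outside that stretch. A longer peak has more room for several, and this was not separated from the difference.

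Where the passage 5 peak sat also varied with the width of the surrounding peak. For single passage 5 peaks wholly inside, the range of possible offsets from the left edge was cut into 5 equal parts. In passage 0 peaks of 1000 to 1499 bp the central part held 31.2% of 1285 passage 5 peaks (28.7% to 33.8%). In those of 1500 to 1999 bp it held 14.6% of 445 (11.5% to 18.2%), with 25.2% and 25.6% in the parts on either side of it. In broad peaks it held 17.7% of 226 (13.0% to 23.3%), and both outermost parts together held 45.6% (39.0% to 52.3%). The outermost parts held 34.6% (30.2% to 39.2%) at 1500 to 1999 bp and 23.7% (21.4% to 26.2%) at 1000 to 1499 bp. Inside broad peaks the later peaks were thus spread over the whole range of offsets. The median distance between the midpoints was 560 bp in broad peaks, or 513.5 bp without the chromosome 11 stretch. It was 282 bp at 1500 to 1999 bp and 95.5 bp in all narrower peaks, a distance that a longer peak also allows to be larger.

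**Figure D4:**
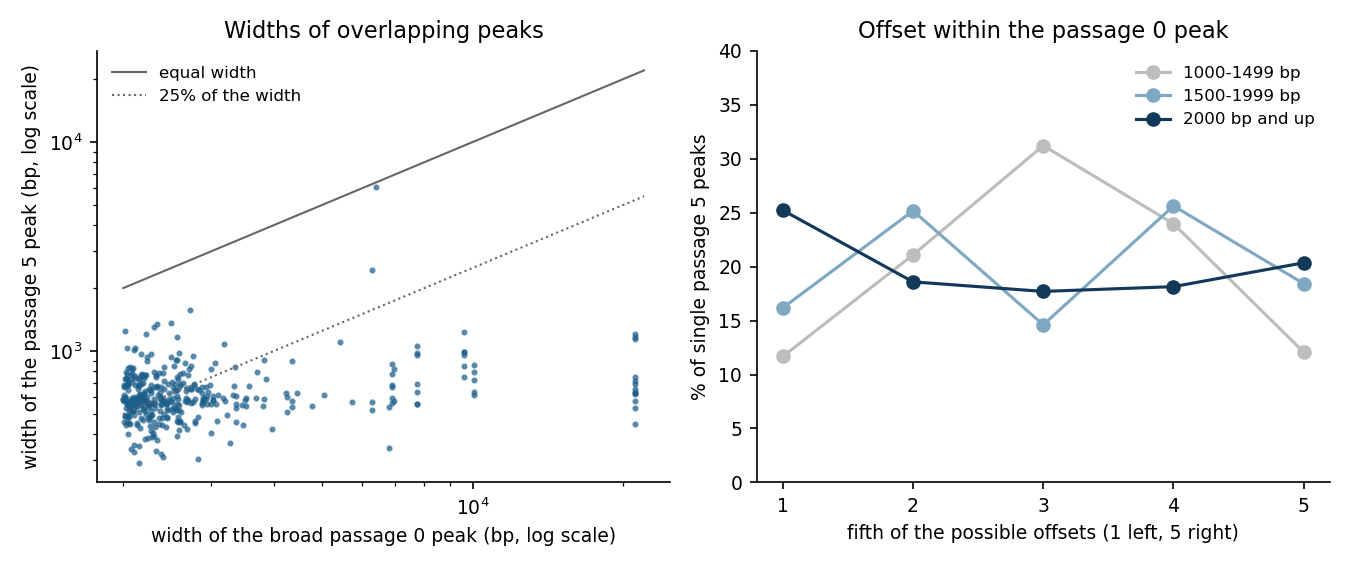
Left, width of each overlapping passage 5 peak against the width of its broad passage 0 peak, both in bp on log scales, with lines of equal width and of 25% of the width; the median passage 5 peak had 23.6% of the width. Right, percentage of single passage 5 peaks wholly inside a passage 0 peak in each of 5 equal parts of the possible offsets from left to right, for 3 classes of passage 0 width; the central part held 31.2% at 1000 to 1499 bp and 17.7% in broad peaks.

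The chromosome 11 stretch held the extremes of width, score and number of passage 5 peaks. Its 8 broad peaks lay head to tail between bases 3031534 and 3100128, separated by 8 to 476 bases. The widest was chr11:3059258-3080326, with 21069 bp, a score of 3100 and 13 passage 5 peaks that covered 46.5% of it. Its neighbour chr11:3080794-3090835 spanned 10042 bp with a score of 3176 and 5 passage 5 peaks. The peak with the highest score of all, 3202, was chr11:3031534-3041136, with 9603 bp and 6 passage 5 peaks over 52.0% of its length. A score of exactly 3100 was given to 3 broad peaks and was also the maximum among narrower peaks. Scores of 3176 and 3202 lay above it, so 3100 was not the upper limit of the scores. Why this value recurred was not tested, so the order of the highest scores is not a ranking of enrichment. The peak at chr11:3041183-3048915 spanned 7733 bp with 7 passage 5 peaks, and that at chr11:3052167-3059044 spanned 6878 bp with 6. Each of the 8 broad peaks here overlapped 2 to 13 separate passage 5 peaks, 44 in all. These had a median width of 693 bp and a maximum of 2449 bp. Of them, 1 bridged a 46-base gap between 2 broad peaks. The origin of these reads was not tested.

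Outside that stretch the widest broad peak was chr14:26294100-26301057, with 6958 bp and a score of 1414. It had 2 passage 5 peaks, of 579 and 823 bp, both in its left part and the first crossing its left edge, that covered 19.2% of it. On chromosome 5, chr5:114818899-114825711 spanned 6813 bp with a score of 1850 and held passage 5 peaks of only 342 and 538 bp, 12.9% of its length. On chromosome 11, chr11:86390846-86396569 spanned 5724 bp and held 1 passage 5 peak of 568 bp, 9.92% of its length. Apart from the chromosome 14 peak, which is the fifth widest of all, these regions and the next were named after their values were seen. The broad peak with the most passage 5 peaks elsewhere was chr13:52063459-52066144, where 3 passage 5 peaks of 580, 422 and 569 bp lay within 2686 bp.

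A peak on chromosome 17 went the other way. At chr17:39979521-39985919, with 6399 bp and a score of 3100, the single passage 5 peak spanned 6101 bp, ended at the same base and covered 95.3% of the width, the largest share among the 374 pairs. The broad peak also stood alone, with the nearest passage 0 peaks 2647 and 2466 kb away. Its passage 5 peak had a score of 3100 as well. The origin of the reads here was not tested.

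Very wide and high-scoring broad peaks also occurred without any passage 5 peak. The widest was chr18:80826002-80831894, with 5893 bp and a score of 1016, where the nearest passage 5 peak lay 9.38 kb away. A pair on chromosome 10, chr10:119859088-119864016 with 4929 bp and chr10:119871545-119876651 with 5107 bp, belonged to the block of 22274 bases, and their nearest passage 5 peaks were 1.47 and 5.32 kb away. On chromosome 19, chr19:44377247-44382144 spanned 4898 bp with a score of 1493, and on chromosome 4, chr4:149280248-149284964 spanned 4717 bp with a score of 1197 and no passage 5 peak within 37.2 kb. The highest score without a passage 5 peak, 1494, belonged to chr14:32476069-32480142 with 4074 bp. The others named by score were chr17:30600010-30604195 (4186 bp, score 1436), whose nearest passage 5 peak was 142 kb away, and chr15:96597753-96602259 (4507 bp, score 1413), with one 22.8 kb away.

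**Figure D5:**
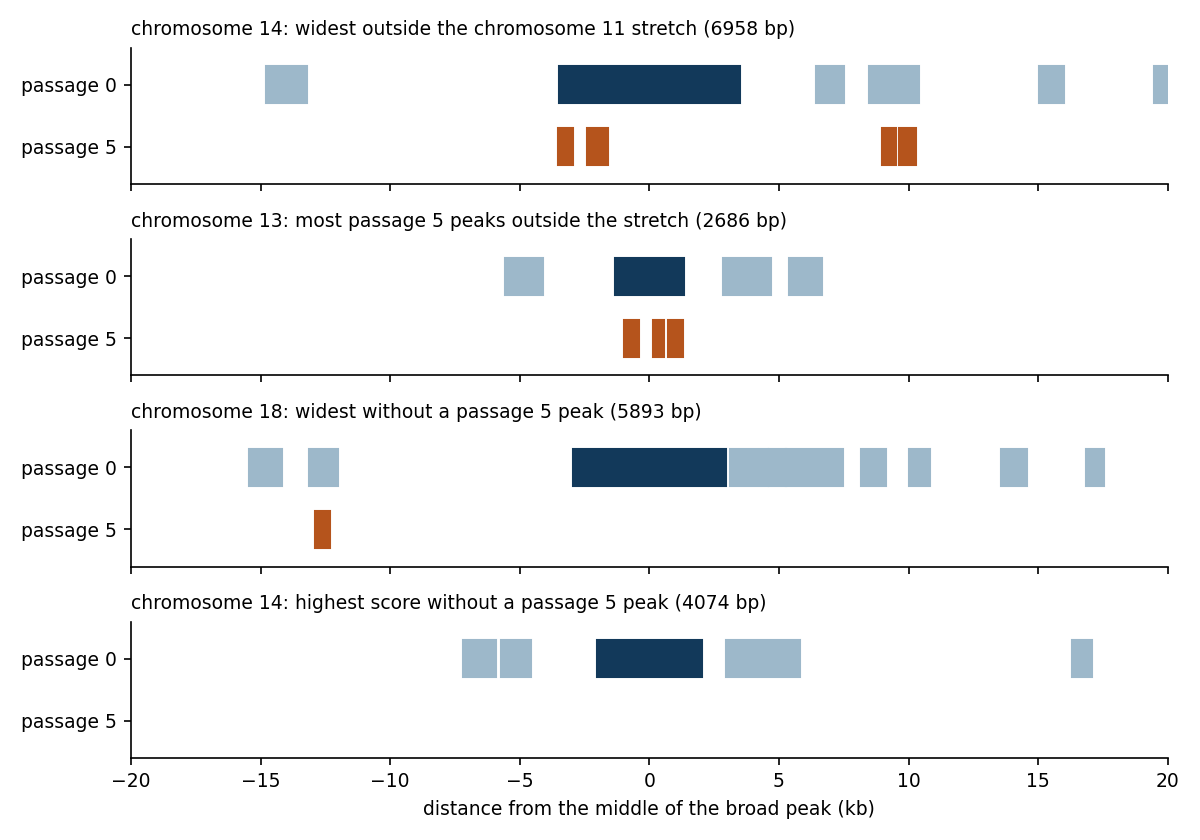
Called peaks within 20 kb of the middle of 4 broad passage 0 peaks (dark blue), with other passage 0 peaks in light blue and passage 5 peaks in orange, drawn to scale by distance in kb. The chromosome 14 peak of 6958 bp held 2 passage 5 peaks and the chromosome 13 peak 3, whereas the chromosome 18 peak of 5893 bp and the chromosome 14 peak of 4074 bp held none.

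Over the 973 broad peaks without a passage 5 peak, the median distance to the nearest one was 30.4 kb (quartiles 10.9 and 81.9 kb). It was 43.0 kb for peaks of 1500 to 1999 bp and 61.9 kb for all narrower peaks without one. A passage 5 peak lay outside but within 1 kb of 27 of the 973, or 2.77%, against 2.25% at 1500 to 1999 bp and 1.86% of all narrower peaks without one. Within 5 kb it was 141 of the 973, or 14.5%, against 12% and 8.58%. Without reads, such sites lack a call at passage 5, and whether they lacked the mark was not tested.

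The narrower peaks beside a broad peak were compared by what the broad peak had. Among 331 narrower neighbours within 5 kb of a broad peak with a passage 5 peak, 12.4% had one themselves (9.04% to 16.4%). Among 1084 beside only broad peaks without one, the share was 6.73% (5.32% to 8.39%), and it was 7.77% over all narrower peaks that had any neighbour within 5 kb. Median widths (940 and 924 bp) and scores (154 and 151) of both sets of neighbours were similar.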

How the data were processed

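For each library the authors deposited a list of peaks with their start, end and an unnamed score. CASAVA 1.8, Bowtie 0.12.7, MACS 1.4.1 and build mm9 appear in the submitters' processing notes, without their steps. The deposited score is the authors' value per peak and was used within each list, with 2 exceptions. A minimum of 100 was applied to both lists in 1 recomputed share. On chromosome 17 the score of 3100 is given for a peak of each list. Duplicate handling, any input control and the threshold were not given in the sources used here. A lower threshold or another merging distance would change widths, and with them which peaks are broad.

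Coordinates are mm9, counted from 1, and width is end minus start in the deposited list. Groups follow the labels, with 1 library at each passage. Gene tables at hand were of GRCm38, so no gene, sequence or CpG content was assigned, and 2 planned results on these were not run. Overlap required 1 shared base and was tested on simulated lists and against bedtools 2.31.1. Regions named are the 5 widest, 5 highest-scoring and 5 with most passage 5 peaks, and the 5 widest and 5 highest-scoring without one. Also named are the 2 peaks on each side of the width limit, the 5 windows with most broad peaks and the 5 longest blocks. The blocks were not in the planned list of named regions. Others are marked as chosen after their values were seen. The broad peaks and comparisons were chosen with earlier results of these data known. Python 3.11.15, numpy 2.4.6, pandas 2.3.3, scipy 1.17.1 and matplotlib 3.10.9 were used.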

Additional observations from a re-analysis of the deposited data

Results flagged for a closer look

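Outside chromosomes 1 to 19, and so outside every comparison above, 7 passage 0 peaks spanned at least 2000 bp. The rule left them out by chromosome only, and no expected number was set for them. The X chromosome held 5 of them among its 65 passage 0 peaks, all between bases 166407584 and 166436597, with widths of 2164 to 11581 bp and scores of at least 1424. Of these 5, 4 had passage 5 peaks, 9 in all. The Y chromosome and the mitochondrial sequence held 1 each, of 3330 and 6581 bp, both with a passage 5 peak.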

How the results depend on the processing

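Of 34 recomputed values for 8 results, 16 stayed within the interval of the reported value (or within 1.5 times a count), 18 moved beyond it and 0 changed direction. The number of broad peaks was 4479 with a minimum of 1500 bp, 150 with 3000 bp, and 5753 when peaks within 1 kb were merged first. The share with a passage 0 neighbour was 60.7% within 2 kb, 90.8% within 10 kb, and, within 5 kb, 75.9% for peaks of at least 1500 bp and 84.0% for at least 3000 bp. A passage 5 peak was found in 17.7% of peaks at 1500 bp, 30.7% at 3000 bp and 18.3% for scores of at least 100, where fewer passage 5 peaks remained. Passage 5 midpoints per Mb were 102.5 without scores of 1000 or more, 149 at 3000 bp, 102.4 at 1500 bp and 106 without the chromosome 11 stretch. The 149 includes that stretch. Outside it the density was 82.3 per Mb at 3000 to 3999 bp and 119 at 4000 bp or more. The median passage 5 width was 25% of the broad peak without scores of 1000 or more and 12.3% at 3000 bp. The latter also includes the chromosome 11 stretch. Outside it the median was 18.1% at 3000 to 3999 bp and 12.3% at 4000 bp or more. The median distance of midpoints was 490.5 bp with exactly 1 passage 5 peak. The difference at like scores was -12.3 percentage points against peaks of 1500 to 1999 bp, an alternative chosen, like all those for that result and for the chromosome 11 stretch, after seeing the data. Apart from changed sets of peaks, the cause was not tested. The lead in number passed from chromosome 8 to chromosome 11, with 14, at 3000 bp. A score minimum of 100 removed no broad peak. Gene features and base composition were not run. No paired analysis was possible because each passage had 1 library.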

Other observations

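Of the 1265 broad peaks, 7 had no other passage 0 peak within 50 kb on either side. At this distance no share was computed for other peaks. Within 10 kb, a neighbour was found for 90.8% of broad peaks, 85.6% at 1500 to 1999 bp and 72.7% of all autosomal peaks. Of the 7 broad peaks, 2 had passage 5 peaks, the one at chr17:39979521-39985919 described above and chr6:142314456-142316781. In the latter, 2 passage 5 peaks of 769 and 750 bp covered 65.3% of 2326 bp. The other 5, at chr1:39161874-39164157, chr1:40714701-40716932, chr2:49425670-49428487, chr9:46510968-46513320 and chr13:104401899-104404095, had scores of 327 to 519 and no passage 5 peak. These peaks were singled out after their values were seen.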
